A study of Danio rerio with 45 samples.

Results

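A set of 153 RNAs, of 12670 gene rows measured, was lower in zebrafish embryos at 3 hours post fertilisation (hpf) than at 1 hpf by at least 1.7-fold. The set was chosen from the measured values. Counts of the 5 sections of each embryo sample were added, and each sum was scaled by its own total (CPM). A member had to be lower in every 3 hpf replicate than in every 1 hpf replicate, with a ratio of (mean 1 hpf CPM + 1) to (mean 3 hpf CPM + 1) of at least 1.7. A total of 159 gene rows met this, 1.25% of all, and 6 of them were among 8 genes left out by name. The fall itself is therefore a description and carries no test. Position along the embryo, the change of that position and the 2 hpf stage were no part of the rule. The sums weight each section by its depth, however, and section E was the shallowest at 3 hpf, so position could affect membership. With the 5 section CPM weighted equally the rule took 163 RNAs, 138 of them in the set.

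Zebrafish (Danio rerio) embryos were taken at 1 hpf, with some 4 cells, at 2 hpf, with some 64, and at 3 hpf, with some 1000, and each was divided along the animal-vegetal axis into sections A, the most animal, to E, the most vegetal. The comparison is between stages of development, and the labels name no strain, mutation or treatment. Section RNA was sequenced in 40 libraries of 8 embryo samples (TOMO-seq), 3 each for 3 hpf and 1 hpf and 2 for 2 hpf, and the labels do not say how many embryos a sample holds. Libraries were made from equal amounts of total RNA after removal of ribosomal RNA, so each value is a share of its section's RNA, and a smaller amount of an RNA cannot be told apart from a larger amount of all others, nor fewer cells holding it from less of it in each cell.

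An egg is loaded by its mother with the RNAs that run the first cleavages, before the embryo transcribes its own genome. These maternal RNAs are removed in steps, first by machinery that is itself maternal and later with factors made by the embryo, a passage known as the maternal-to-zygotic transition. In fish the large yolk lies at the vegetal pole, the blastodisc forms at the animal pole, and some maternal RNAs, such as those of the germ plasm that specifies germ cells, are held in particular places.

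Libraries held 1355607 to 6566549 counts, and the lowest depth at 3 hpf was in section E. A principal component of log2(CPM + 1) values, which held 35.6% of the variance over 9503 genes, set 13 libraries apart. They were all 10 from replicate 3 of 3 and 1 hpf and, from 2 hpf replicate 2, sections E, B and A, so the sections labelled 2 hpf replicate 2 did not go together. Results that turn on replicate 3, or on any other library, are given without it where they are described. First zygotic genes reached 52.7 to 171 CPM in all at 3 hpf, against 1.14 to 2.43 CPM at 1 hpf, in the order the labels give. Of 9 ovarian follicle markers 2 were measured, at a summed 0.438 to 9.15 CPM at 3 hpf and 0.444 to 8.60 CPM at 1 hpf, and no blood, liver or yolk syncytial layer marker of those listed was measured.

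The 153 RNAs together made up 9324, 9293 and 9027 CPM in the 1 hpf samples, 7340 and 7134 CPM at 2 hpf, and 4441, 5629 and 4556 CPM at 3 hpf. Their median level was between 23.0 and 24.4 CPM at 1 hpf, 18.6 and 19.7 CPM at 2 hpf, and between 10.2 and 12.5 CPM at 3 hpf. The median 1 hpf level of the set was 23.5 CPM, against 31.7 CPM for all other genes; CPM is not divided by transcript length, so an order of genes by CPM is not one of molecules. At that stage 28 of its members were under 10 CPM, 106 lay between 10 and 100 CPM and 19 were higher. The median ratio was 1.91, the largest was 4.15, 61 RNAs reached a ratio of 2 and 7 reached 3. Of all genes, 11.2% lay lower at 3 hpf in every replicate whatever the ratio and 8.24% lay higher, and 0.6% met the mirror image of the rule.

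**Figure D1:**
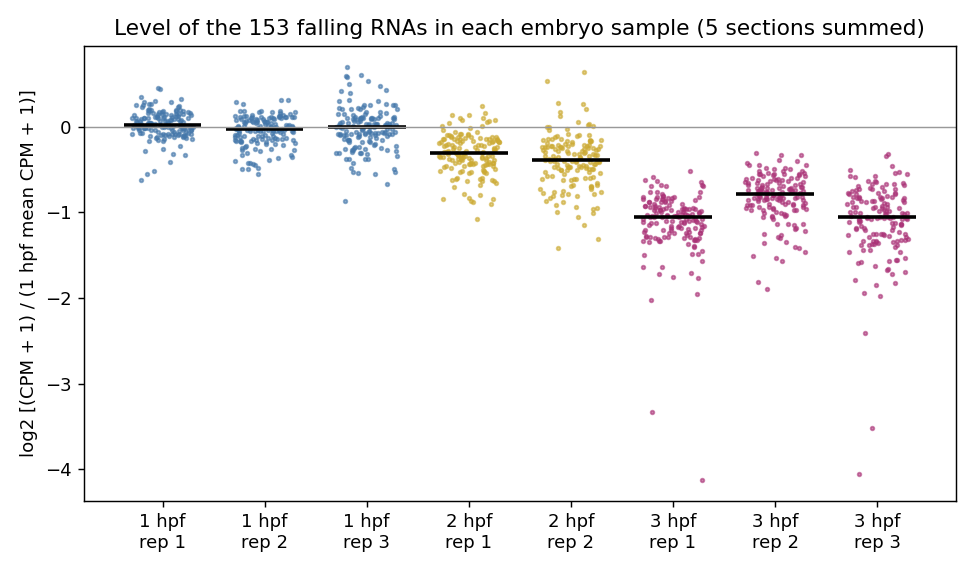
Level of each of the 153 falling RNAs (points) in the 8 embryo samples, as log2 of CPM + 1 over the 1 hpf mean CPM + 1, with the median as a bar. The 2 hpf samples lie between those of 1 and 3 hpf, and replicate 2 is the highest of the 3 hpf samples.

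Replicate 2 had the highest 3 hpf value for 102 of the 153 RNAs, whereas it was the highest sample for 34.3% of all genes. Without replicate 2 at both stages the rule would take 269 RNAs, 142 of which are in the set. Without replicate 3 it would take 183, with 118 of the set, and without replicate 1 it would take 147, with 112 of the set. At the boundary, the RNAs just inside were slc25a39 (ratio 1.7003; 149 CPM at 3 hpf and 254 CPM at 1 hpf), zar1l_1 (1.7013; 34.8 and 60.0 CPM) and org (1.7033; 351 and 599 CPM). Those just outside were zgc:171480 (1.698; 15.2 CPM at 3 hpf and 26.4 CPM at 1 hpf), rnaset2 (1.69; 28.2 and 48.4 CPM) and elovl6l (1.69; 373 and 632 CPM).

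At 2 hpf most of the set lay between the other stages. The 2 hpf mean lay between the other stages for 146 of the 153 RNAs and above the 1 hpf mean for 7, and it lay below the 3 hpf mean for 0. Both 2 hpf samples were lower than every 1 hpf sample for 93 RNAs, against 9.31% of all genes, and both were higher than every 3 hpf sample for 121, against 15.6% of all genes. With 1 of the 2 hpf samples alone, these counts were 105 and 142 for replicate 1 and 113 and 131 for replicate 2. The median RNA had completed 43.2% of its fall at 2 hpf, with quartiles of 29.5% and 56.8%. These figures share the 1 and 3 hpf samples that chose the set, and that choice alone favours 2 hpf values between them. Nothing is therefore read from the excess over all genes, and whether the fall had begun by 2 hpf was not tested.

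Among the RNAs with descriptive symbols, the largest ratio was that of ptrhd1, which encodes a protein with a peptidyl-tRNA hydrolase domain. It had 11.5, 9.29 and 7.46 CPM at 1 hpf, 8.34 and 5.44 CPM at 2 hpf, and 2.52, 2.52 and 1.95 CPM at 3 hpf. The 3 hpf values lay close together, well below the lowest sample of the other stages. The gene alg10, for the enzyme that adds the last glucose to the sugar chain built for N-glycosylation, had 11.8, 13.1 and 13.8 CPM at 1 hpf, 7.95 and 10.8 CPM at 2 hpf, and 2.58, 2.74 and 5.43 CPM at 3 hpf. Its partner in the same pathway alg13, for a subunit of the enzyme that adds the second sugar, had 143, 129 and 125 CPM at 1 hpf, 120 and 101 CPM at 2 hpf, and 46.7, 70.0 and 36.1 CPM at 3 hpf. Both thus followed the same order of stages, and the 3 groups of samples did not overlap for either gene. The row osm, which RefSeq lists as a long non-coding RNA, had a ratio of 3.12 and rested on 61 counts over the 3 samples of 3 hpf and 396 over those of 1 hpf.

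The other RNAs at a ratio above 3 had no descriptive symbol and are named here after their values were seen. They were zgc:171459 (0.936 CPM at 3 hpf and 6.56 CPM at 1 hpf), zgc:174935 (9.29 and 31.5 CPM), LOC137491490 and LOC108184065. The last pair did not fall evenly. LOC137491490 had 0.246, 5.75 and 0.0953 CPM at 3 hpf, against 10.2, 10.5 and 14.0 CPM at 1 hpf. LOC108184065 had 0, 10.1 and 0.0476 CPM at 3 hpf, against 16.6, 12.9 and 19.9 CPM at 1 hpf. Both were near 0 in replicates 1 and 3 of 3 hpf and far higher in replicate 2.

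**Figure D2:**
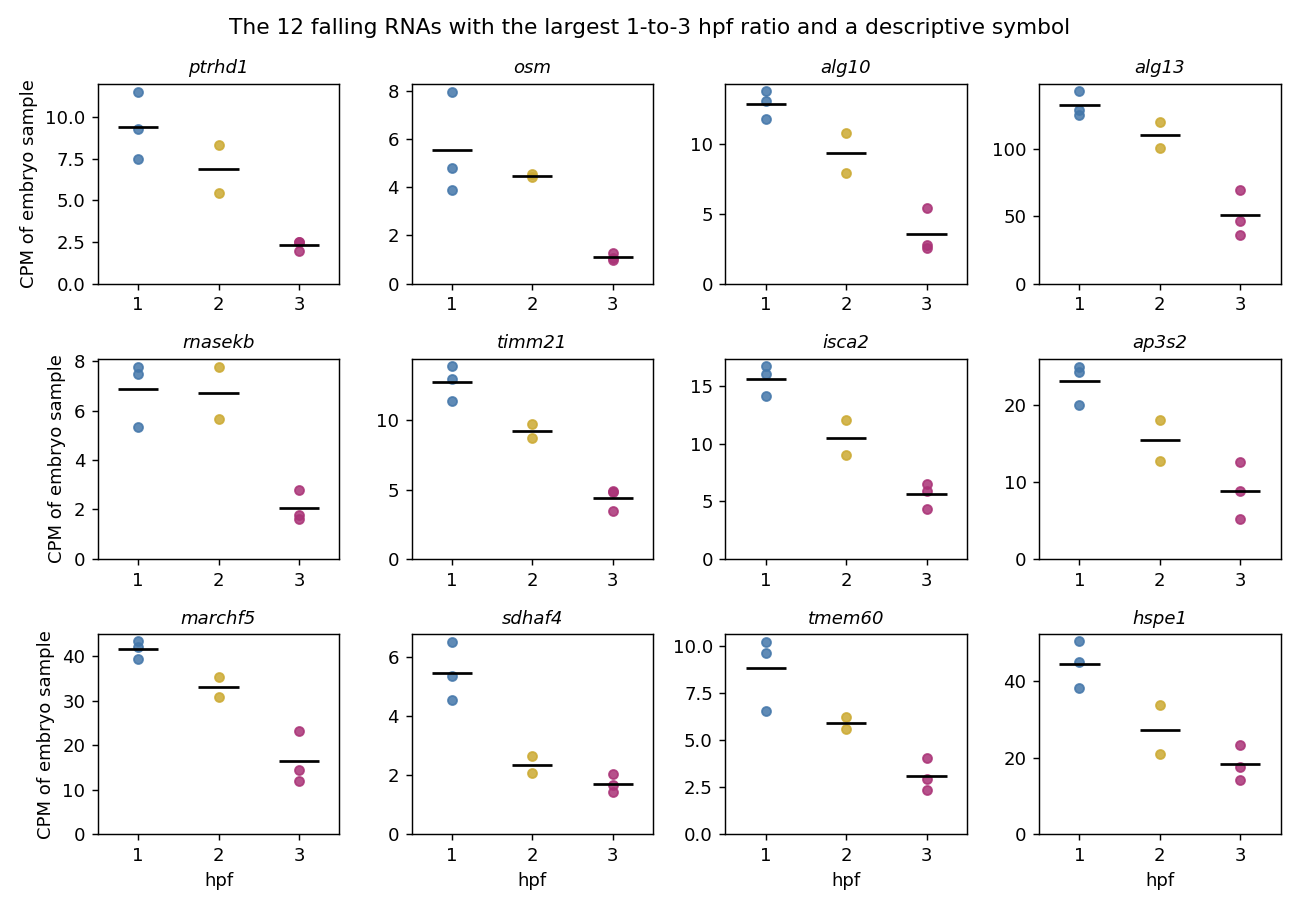
CPM of the 12 falling RNAs with the largest ratio among those with a descriptive symbol, at 1, 2 and 3 hpf; points are embryo samples and bars are means. In each panel the 3 hpf points lie below the 1 hpf points, as the rule demands, and the 2 hpf mean lies between, as for alg13 with 133, 110 and 50.9 CPM.

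A function could be given to 83 of the 153 RNAs by their symbols, in groups drawn up after the values were seen, and the largest group, with 23 members, served the mitochondrion. Its median ratio was 2.03, and its members together made up 704 CPM at 1 hpf, 532 CPM at 2 hpf and 363 CPM at 3 hpf. At 2 hpf the median member of this group had completed 55.7% of its fall, against 43.2% for the whole set. This uses the mean of both 2 hpf samples, was not split by sample, and the difference was not tested. Many of its members build the respiratory machinery or supply its parts. The gene sdhaf4, for an assembly factor of succinate dehydrogenase, had 4.54, 5.36 and 6.52 CPM at 1 hpf, 2.07 and 2.64 CPM at 2 hpf, and 2.03, 1.42 and 1.67 CPM at 3 hpf, so that its 2 hpf samples were already near the 3 hpf level. Assembly factors of cytochrome c oxidase were represented by coa3b (11 ± 0.872 CPM at 3 hpf and 25 ± 2.33 CPM at 1 hpf; SD, n = 3 each) and pet100 (9.85 ± 1.81 and 21.2 ± 3.71 CPM). That of ATP synthase, atpaf1, had 12.2 ± 1.33 CPM at 3 hpf and 25.7 ± 0.114 CPM at 1 hpf.

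Iron-sulphur cluster assembly was represented by isca2 (5.6 ± 1.11 CPM at 3 hpf and 15.7 ± 1.35 CPM at 1 hpf) and by lyrm4, a partner of the cysteine desulphurase (5.10 ± 0.498 and 12.5 ± 1.5 CPM). Protein import and folding were represented by timm21, of the inner membrane translocase (4.41 ± 0.839 CPM at 3 hpf and 12.8 ± 1.28 CPM at 1 hpf), and hspe1, the co-chaperonin of Hsp60. The gene hspe1 had 45.2, 50.5 and 38.2 CPM at 1 hpf, 33.8 and 21.0 CPM at 2 hpf, and 17.7, 23.5 and 14.2 CPM at 3 hpf. Its 3 stages did not touch except that one 2 hpf sample lay below the highest 3 hpf sample. The mitochondrial ribosome gave mrps12, mrpl33, mrpl21, mrpl40 and mrpl35, with ratios between 1.72 and 2.32. Subunits of the respiratory chain itself were ndufs6 of complex I (8.26 ± 2.21 CPM at 3 hpf and 15.9 ± 3.05 CPM at 1 hpf) and atp5pd of ATP synthase (31.6 ± 7.87 and 57.2 ± 7.77 CPM). The carrier gene slc25a39, needed for glutathione uptake into mitochondria in mammals, had the highest CPM of the group.

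The wider lists from which these members come are described by the same comparison of all replicates. By it 11.2% of all genes were lower and 8.24% higher, and no list here or below was tested against these shares. Of 62 rows for mitochondrial ribosomal proteins, 19 were lower in every 3 hpf sample than in every 1 hpf sample and 0 were higher, 30.6% against 11.2% of all genes. Of 81 rows for mitochondrial assembly and import factors, 24 were lower (29.6%) and 3 higher. Of 89 respiratory chain rows, 28 were lower and 1 higher, with a median log2 ratio of 3 over 1 hpf of -0.20, against a median of 0.00 for all genes. The first pair of lists was drawn up after members with these functions had been seen. Cytosolic ribosomal proteins contributed 0 members of 76 rows, with 6 lower and 2 higher. Proteasome subunits contributed 0 of 50, with 7 lower and 3 higher. Histone genes (27 rows, 16 higher and 1 lower) and splicing genes (128 rows, 36 higher and 9 lower) contributed 0 members each. The rule took 1.25% of all gene rows, so nothing is read from the absence of members in lists of this size.

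The next group, of 19 members, belonged to the secretory pathway, endosomes and lysosomes, with a summed 867 CPM at 1 hpf, 695 CPM at 2 hpf and 408 CPM at 3 hpf. Besides alg10 and alg13 it held ap3s2, for the small subunit of the AP-3 adaptor that sorts cargo to lysosomes, with 24.3, 20.1 and 25 CPM at 1 hpf, 18 and 12.8 CPM at 2 hpf, and 8.79, 12.5 and 5.14 CPM at 3 hpf. The proton pump of lysosomes and other acid compartments gave atp6v1h (21.0 ± 5.25 CPM at 3 hpf and 43.5 ± 0.813 CPM at 1 hpf) and atp6v1f (17.5 ± 5.09 and 37.4 ± 3.90 CPM). Of 31 V-ATPase and lysosome rows in the wider list, 6 were lower and 4 higher in every replicate. The Ragulator subunit gene lamtor3, which links lysosomes to growth signalling, had 10.4 ± 3.02 CPM at 3 hpf and 25.2 ± 0.928 CPM at 1 hpf. Tethering and fusion factors were represented by trappc5 (16.4 ± 1.98 and 30.6 ± 0.443 CPM) and stx2b (30.6 ± 13.5 and 57.7 ± 2.96 CPM). The value of stx2b was uneven at 3 hpf, with 22.6, 23.2 and 46.2 CPM.

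Recycling endosomes gave a pair of members, the small GTPase gene rab11al and rab11fip1a, whose mammalian counterpart encodes an effector that binds Rab11. At 1, 2 and 3 hpf, rab11fip1a averaged 202, 158 and 103 CPM, and its samples did not overlap between any of the stages. The pair differed in opposite directions between sections E and A, as described below. The vacuolar and endoplasmic reticulum members included ids, for the lysosomal enzyme iduronate 2-sulphatase, dnajb9b, a chaperone of the endoplasmic reticulum, and get1, which inserts tail-anchored proteins and rested on 36 counts over the 3 hpf samples and 192 over those of 1 hpf.

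Ubiquitin, related modifiers and autophagy gave 12 members. The ubiquitin ligase gene marchf7 had 396, 386 and 371 CPM at 1 hpf, 308 and 304 CPM at 2 hpf, and 190, 250 and 232 CPM at 3 hpf. Its mitochondrial relative marchf5, a ligase of the outer membrane, had 16.5 ± 5.88 CPM at 3 hpf, against 41.5 ± 2.06 CPM at 1 hpf. Conjugating enzymes were represented by ube2wa, ube2t of the Fanconi anaemia pathway (17.6 ± 2.12 CPM at 3 hpf and 32.2 ± 2.85 CPM at 1 hpf) and ube2c of the anaphase-promoting complex (60.1 ± 8.24 and 105 ± 14.1 CPM). The modifier genes sumo2a (12.9 ± 0.519 CPM at 3 hpf and 30.9 ± 3.71 CPM at 1 hpf) and ufm1 (16.4 ± 1.97 and 33.4 ± 5.21 CPM) and the autophagy conjugating enzyme gene atg3 (63.7 ± 13.2 and 133 ± 7.03 CPM) were also members. Among 97 listed ubiquitin conjugation and deubiquitination rows, 12 were lower and 16 higher in every replicate.

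A group of 12 members acts on chromosomes, DNA repair and division, with a median ratio of 1.77. The survivin gene birc5a, of the chromosomal passenger complex, had 73.8, 74.4 and 72.7 CPM at 1 hpf, 56.3 and 42.2 CPM at 2 hpf, and 41.8, 45.9 and 35.0 CPM at 3 hpf. It was steady between replicates at 1 hpf and 1 of its 2 hpf samples was already within the 3 hpf range. The row stil_1, for a centriole duplication factor, had 111, 104 and 91.4 CPM at 1 hpf, 75.6 and 73.6 CPM at 2 hpf, and 40.9, 58.7 and 40.6 CPM at 3 hpf. No row of the 19 mitotic cyclins and meiotic exit factors was a member (3 lower and 6 higher in every replicate). The same held for the 47 mRNA decay and poly(A) control factors (6 lower and 8 higher). The rule took 1.25% of all gene rows, so nothing is read from these absences. The repair gene rad52 appeared as 2 rows, rad52_1 (13.5 CPM at 3 hpf and 24.3 CPM at 1 hpf) and rad52 (7.83 and 14.1 CPM), which both met the rule and whose sum had a ratio of 1.77. The other 70 RNAs of the set, 25 of them without a descriptive symbol, were given no role.

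Signalling and extracellular proteolysis gave 9 members, with a median of 21.9% of the fall completed at 2 hpf, against 43.2% for the whole set, a difference that was not tested. The metalloprotease gene adam9b had 103, 93.8 and 112 CPM at 1 hpf, 92.9 and 105 CPM at 2 hpf, and 47.5, 67.3 and 64.4 CPM at 3 hpf, so its 2 hpf samples overlapped with 1 hpf. The interferon gamma receptor gene ifngr2 had 19.3, 18.6 and 22.4 CPM at 1 hpf, 17.6 and 20.4 CPM at 2 hpf, and 9.77, 9.96 and 10.9 CPM at 3 hpf. Others were map2k6, a kinase of the p38 pathway (49.4 ± 5.25 CPM at 3 hpf and 85 ± 6.23 CPM at 1 hpf), the EGF-family ligand gene hbegfb (8.30 ± 2.57 and 16.1 ± 2.36 CPM) and the inhibitory G protein subunit gene gnai2a (82.5 ± 13.1 and 159 ± 10.6 CPM). Of 99 growth factor ligand and receptor rows, 7 were lower and 8 higher.

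The 7 transcription regulators included zfpm2b, a GATA cofactor (17.6 ± 4.17 CPM at 3 hpf and 38.6 ± 9.29 CPM at 1 hpf), msx1b (5.43 ± 1.25 and 12.2 ± 2.04 CPM), irf1b (4.81 ± 1.93 and 11.1 ± 2.61 CPM) and hic1l, related to the repressor HIC1 of mammals (94.7 ± 14.1 and 187 ± 12 CPM). The homeobox zinc finger gene tshz3a was among the 7 RNAs whose 2 hpf mean was above that of 1 hpf, with 32.8, 34.9 and 17.8 CPM at 1, 2 and 3 hpf. The zinc finger gene znf576.1, with no role assigned here, had 98.2 ± 13.8 CPM at 3 hpf and 188 ± 30.2 CPM at 1 hpf.

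The member with the highest CPM was ca15b, a carbonic anhydrase gene whose RNA is known in zebrafish as a component of germ plasm. It had 1146, 1084 and 1237 CPM at 1 hpf, 857 and 811 CPM at 2 hpf, and 559, 784 and 530 CPM at 3 hpf. Its stages did not overlap. It was the only member among 13 listed germ plasm rows, of which 5 were lower and 1 higher in every replicate. The summed level of 8 defining germ plasm genes, ca15b included, was 3361 to 3699 CPM at 3 hpf and 3956 to 4562 CPM at 1 hpf. Among RNAs stored in the oocyte, org, named for its expression in oogenesis, had 585, 614 and 597 CPM at 1 hpf, 567 and 484 CPM at 2 hpf, and 327, 447 and 279 CPM at 3 hpf. The nucleoplasmin gene npm2a, whose product remodels sperm chromatin, had 17.6 ± 2.88 CPM at 3 hpf and 33.9 ± 1.06 CPM at 1 hpf, and zar1l_1 encodes a relative of the translational regulator Zar1. Of 19 egg coat and oocyte rows, 8 were lower and 1 higher.

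In all 5 sections the set was lower at 3 hpf. The median log2 ratio of 3 over 1 hpf was -0.96 in section E, -1.07 in D, -0.996 in C, -0.95 in B and -0.88 in A, against medians between -0.08 and 0.00 for all genes. After TMM scaling, which makes the bulk of genes equal between libraries, the 5 medians ran from -0.87 to -1.02. Summed over the set, section E held 3629, 3975 and 4486 CPM at 3 hpf, against 8914, 8000 and 9330 CPM at 1 hpf, and section A held 4837, 5901 and 4594 CPM at 3 hpf, against 9240, 9833 and 8917 CPM at 1 hpf. No 3 hpf section library reached any 1 hpf section library in this sum. The sections are those whose sum chose the set, so lower section values than for all genes are favoured by the rule. The contrast with all genes is therefore no test.

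The next counts describe the sections whose sum chose the set, so an excess over all genes follows from the rule and nothing is read from it. The mean was lower at 3 hpf in all 5 sections for 150 of the 153 RNAs. Every 3 hpf library was lower than every 1 hpf library for 101 RNAs in section E, 123 in D, 133 in C, 138 in B and 116 in A, where 11.4%, 11.9%, 10.4%, 8.75% and 7.64% of all genes did the same. This held in all 5 sections for 61 RNAs, against 1.44% of all genes, and in none for 1 RNA. The largest fall was in section D for 60 RNAs, in E for 38, in C for 23, in B for 18 and in A for 14, and the smallest was in D for 18, in E for 45, in C for 20, in B for 21 and in A for 49. The depth of section E at 3 hpf, 1355607 to 2327972 counts, was the lowest of that stage, and its part in these counts was not tested.

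**Figure D3:**
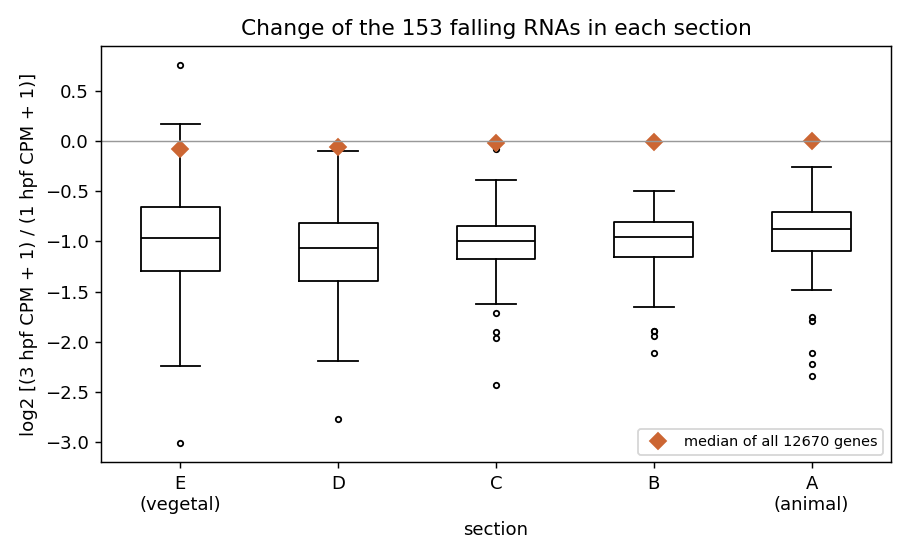
Log2 ratio of 3 over 1 hpf (CPM + 1) for the 153 falling RNAs in sections E (vegetal) to A (animal); boxes span the quartiles, whiskers reach 1.5 times that range, and diamonds mark the median of all 12670 genes. The medians lie between -1.07 in D and -0.88 in A, below the diamonds in every section.

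The 3 RNAs that were not lower in every section had their exception in section E. They were zgc:92591 (log2 ratio 0.76 in E and -1.73 in D), zgc:92606_1 (0.17 in E and -1.66 in D) and tmem79a (0.03 in E and -0.65 in D). For zgc:92591 the value in E rested on 1 library, with 34.7, 6 and 5.58 CPM at 3 hpf, against 7.65, 12.6 and 5.85 CPM at 1 hpf. Without section E of 3 hpf replicate 1 its log2 ratio was -0.52, and that of tmem79a was -0.18. The ratio of zgc:92606_1 lay between 0.10 and 0.29 with any 1 of the 3 hpf libraries of section E left out. The germ plasm RNA ca15b had the stages apart in sections E and D and overlapping in C, B and A. In section E it had 252, 249 and 810 CPM at 3 hpf, against 2039, 1283 and 2907 CPM at 1 hpf, a log2 ratio of -2.25. In section D it had 469, 1218 and 898 CPM at 3 hpf, against 1289, 1259 and 1955 CPM at 1 hpf. In section B it had 762, 807 and 351 CPM at 3 hpf, against 563, 919 and 473 CPM at 1 hpf, and in section A 433, 418 and 196 CPM at 3 hpf, against 1048, 1298 and 409 CPM at 1 hpf.

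Position along the axis was tested within each stage. The shares of the set called between E and A were lower than those of all genes, except for RNAs higher in E at 3 hpf. These differences in share were not tested. Section E had less weight at 3 hpf than at 1 hpf in the sums that chose the set. The share higher in E at 3 hpf is therefore not independent of that choice. With edgeR's quasi-likelihood test and a block for the embryo sample, 8 of 153 RNAs were higher in E than in A at 1 hpf and 6 were lower, that is 5.23% and 3.92%, against 6.76% and 6.34% of all genes tested. At 2 hpf 4 were higher and 6 lower, that is 2.61% and 3.92% (5.12% and 4.87% of all genes). At 3 hpf, where 145 of the 153 passed the filter on low counts, 14 were higher and 8 lower, that is 9.66% and 5.52% (8.1% and 7.49% of all genes). The RNAs not tested at 3 hpf were zgc:171459, osm, get1, diabloa, wdr54, bbln, gnl3l and micu2. The median log2 difference of E over A was 0.04, 0.17 and 0.03 at the 3 stages, against 0.00, 0.02 and -0.02 for all genes.

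These counts depended on the scaling and the libraries. With library totals in place of TMM factors, 6 were higher and 12 lower in E at 1 hpf, and 10 higher and 19 lower at 3 hpf. Without replicate 3 at 3 hpf 6 were higher and 12 lower, and without replicate 2 there 9 were higher and 5 lower. At 1 hpf 5 were higher without replicate 2. At 2 hpf 2 were higher without section E of replicate 2, and 8 without its sections C and D. A difference among any of the 5 sections was called for 13 RNAs at 1 hpf (11.5% of all genes), 7 at 2 hpf (6.49%) and 18 at 3 hpf (12%), and the last count was 8 to 9 with any 1 replicate left out. Without section E of 2 hpf replicate 2 the count at 2 hpf was 3. In all, 32 RNAs were called between E and A at 1 or more stages, against 20.8% of all genes. Of the other 121, 113 were tested at each stage and 8 were not tested at 3 hpf.

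Higher in E at all 3 stages were 2 RNAs, rab11al and ids. The GTPase gene rab11al had 65.4, 66.8 and 103 CPM in section E at 1 hpf, against 51.8, 36.9 and 45.6 CPM in section A. At 3 hpf it had 38.4, 33.5 and 70.5 CPM in E, against 15.4, 14.8 and 16.8 CPM in A. The ends did not overlap at either stage. Its log2 difference of E over A was 1.00 ± 0.15 (SE; edgeR adjusted p = 2.79e-05) at 1 hpf, 1.54 ± 0.27 (0.00505) at 2 hpf and 1.77 ± 0.28 (5.56e-05) at 3 hpf, and all alternatives run kept these calls. The lysosomal enzyme gene ids also passed at each stage, with 0.77 ± 0.14, 0.79 ± 0.16 and 0.76 ± 0.25. Without section E of 2 hpf replicate 2 the 2 hpf call was lost (edgeR adjusted p = 0.086). At 3 hpf ids was higher in E in 2 of 3 replicates by library-total CPM, and without replicate 3 the difference was 0.26 (edgeR adjusted p = 0.706).

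The conjugating enzyme gene ube2wa passed at 1 hpf (1.21 ± 0.30) and at 3 hpf (2.2 ± 0.54). At 1 hpf it was higher in E in 2 of 3 replicates by CPM, with 19.7 CPM in E and 22.5 CPM in A in replicate 1. Its 1 hpf call held in 6 of 10 alternatives. Its section E values at 3 hpf were uneven, with 6.64, 8.50 and 23.6 CPM, against 2.59, 2.32 and 4.77 CPM in section A. Without replicate 3 the difference at 1 hpf was 0.62 (edgeR adjusted p = 0.382) and that at 3 hpf 1.82 (0.129). The germ plasm RNA ca15b was higher in E at 1 hpf (1.34 ± 0.32; edgeR adjusted p = 0.00441) and at 2 hpf (1.94 ± 0.28; 0.00174). At 3 hpf its difference was 0.62 ± 0.41 (edgeR adjusted p = 0.386), and its highest mean was in section D, at 862 ± 376 CPM, against 437 ± 323 CPM in E, with 349 ± 133 CPM at the animal end (SD, n = 3). The change between these stages did not pass (-0.72 ± 0.61; edgeR adjusted p = 0.727). By CPM, ca15b was higher in E than in A at 1 hpf in 2 of 3 replicates, with 1283 and 1298 CPM in replicate 2. Without replicate 3 the difference at 1 hpf was 0.61, still past the threshold, and without replicate 2 it was 1.93. Without the replicate block the 1 hpf difference did not pass (edgeR adjusted p = 0.0597).

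Lower in E at all 3 stages were 3 RNAs, rab11fip1a, ano10b and LOC137496707. At 1 hpf rab11fip1a had 112, 110 and 142 CPM in section E, against 233, 238 and 241 CPM in section A, and at 3 hpf it had 46.5, 57.5 and 81.2 CPM in E, against 117, 142 and 122 CPM in A. The ends did not overlap at either stage, and the means stepped up from E to B at 1 hpf and from E to A at 3 hpf. Its log2 difference was -0.83 ± 0.10 at 1 hpf, -0.80 ± 0.13 at 2 hpf and -0.83 ± 0.15 at 3 hpf (edgeR adjusted p = 1.76e-06, 0.0037 and 3.21e-04). The 2 Rab11-related RNAs of the set thus differed between E and A in opposite directions at each stage. Both were present in every section. At 1 hpf the lowest section mean was 38.3 CPM (in B) for rab11al and 121 CPM (in E) for rab11fip1a. The gene ano10b, for a protein of the anoctamin family, had the largest E-to-A difference at 1 hpf among descriptive symbols. It had 8.85, 2.00 and 6.01 CPM in E at 3 hpf, against 18.7, 24.1 and 16.4 CPM in A. At 1 hpf it had 6.96, 8.32 and 10.8 CPM in E, against 45, 43.3 and 29.1 CPM in A. The differences were -1.94 ± 0.23, -1.77 ± 0.30 and -1.63 ± 0.38 at the 3 stages, and the last was -1.04 without replicate 2 (edgeR adjusted p = 0.122).

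The row LOC137496707, chosen after its values were seen, had the largest E-to-A difference of the set at 1 hpf. It had 248, 188 and 168 CPM in section E at 3 hpf, against 808, 847 and 761 CPM in A, and 216, 209 and 255 CPM in E at 1 hpf, against 1064, 1477 and 1348 CPM in A. In section E the 3 and 1 hpf values overlapped, whereas in A they did not. Its log2 difference of E over A was -2.37 ± 0.13 at 1 hpf and -1.80 ± 0.17 at 3 hpf, and the change between them did not pass (0.57 ± 0.25; edgeR adjusted p = 0.379). At 1 hpf LOC108179134 (-1.65 ± 0.30), macc1 (-0.53 ± 0.08) and marchf7 (-0.35 ± 0.07) were also lower in E. The sugar kinase gene nagk (0.67 ± 0.21), the antigen presentation gene mhc1haa (0.63 ± 0.17), adam9b (0.68 ± 0.09) and si:zfos-943e10.1 (0.24 ± 0.08) were higher. Leaving out replicate 1 or 2 ended the call for nagk (edgeR adjusted p = 0.157 and 0.139), replicate 1 or 3 that for mhc1haa (0.0845 and 0.188), and replicate 2 or 3 that for si:zfos-943e10.1 (0.281 and 0.323). Without section A of replicate 1 nagk and si:zfos-943e10.1 did not pass either (0.123 and 0.0783).

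**Figure D4:**
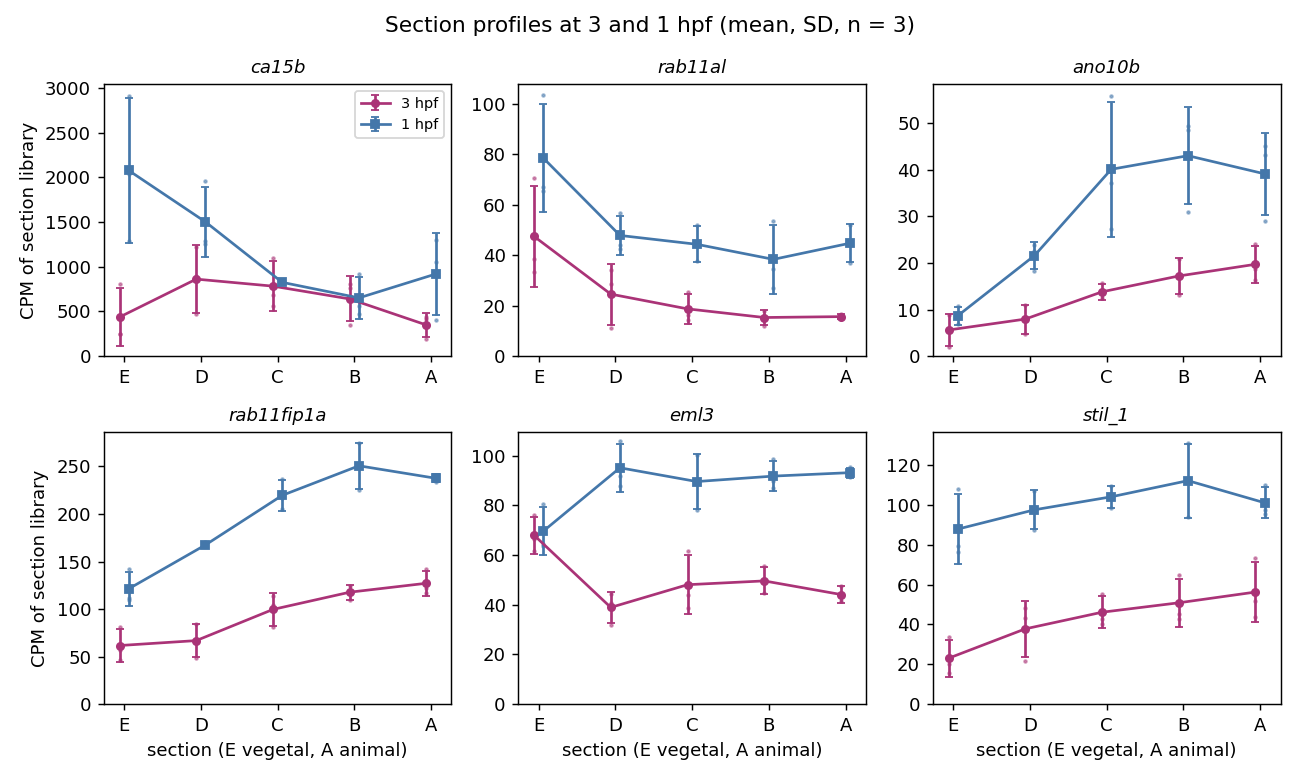
CPM in sections E (vegetal) to A (animal) at 3 and 1 hpf for 6 of the falling RNAs; large symbols and bars give mean and SD (n = 3), small points the replicates. The gene rab11al is highest in E and rab11fip1a lowest there at both stages, ca15b averages 437 CPM in E at 3 hpf and 2076 CPM at 1 hpf, and eml3 has 68.0 and 69.6 CPM in E but 44.1 and 93.1 CPM in A at 3 and 1 hpf.

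At 2 hpf hic1l (-0.97 ± 0.18), znf576.1 (-0.66 ± 0.13) and a row without a descriptive symbol (-0.60 ± 0.10) were also lower in E than in A. The repair gene paxx, which acts in end joining, was higher in E (0.71 ± 0.19). By section mean, hic1l and znf576.1 were highest in C at 2 hpf (186 and 176 CPM) and lowest in E (73 and 99 CPM). The highest mean of paxx was also in C (49.8 CPM), and its lowest was in A (32.3 CPM). Without section E of 2 hpf replicate 2, hic1l and paxx did not pass (edgeR adjusted p = 0.0751 and 0.199). At 3 hpf hic1l was again lower in E (-0.82 ± 0.19), with 31.7, 54.0 and 86.3 CPM in E, against 100, 130 and 120 CPM in A. Without replicate 1 or 2 at 3 hpf it did not pass (edgeR adjusted p = 0.0535 and 0.131). Its 1 hpf difference of -0.25 ± 0.09 had an edgeR adjusted p of 0.0778.

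Of the 23 mitochondrial members 4 were called between E and A, with differences in both directions at 3 hpf. Of all genes tested at 3 hpf, 8.1% were higher and 7.49% lower in E, and the share in this group was not tested against them. Higher in E were sdhaf4 (2.24 ± 0.67) and bnip3la, for a receptor that marks mitochondria for autophagy (1.77 ± 0.43). Lower in E were coa3b (-1.60 ± 0.40) and atp5pd (-0.91 ± 0.22). For coa3b section E had 5.16, 5 and 2.15 CPM at 3 hpf, against 12, 15.3 and 13.9 CPM in A, and at 1 hpf the ends overlapped, with 24.8, 24.1 and 19.6 CPM in E and 19.8, 28.1 and 25 CPM in A. For sdhaf4 section E had 5.16, 4.00 and 5.16 CPM at 3 hpf, against 1.67, 0.927 and 0.909 CPM in A, and all its 3 hpf sections together held 94 counts. Leaving out replicate 2 or 3 ended the call for sdhaf4 (edgeR adjusted p = 0.118 and 0.214), coa3b (0.0592 and 0.112) and bnip3la (0.0598 and 0.127), as did replicate 2 for atp5pd (0.0674).

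Other RNAs higher in E at 3 hpf were lyrm9 (1.66 ± 0.39), plekhj1 (1.21 ± 0.27), tapt1a (1.16 ± 0.33), tmem79a (1.11 ± 0.19), gid8a, a subunit of a ubiquitin ligase (1.1 ± 0.24), and eml3, for a microtubule-binding protein (0.82 ± 0.17). Also passing were atg3 (0.52 ± 0.17), ifi27.4 (0.90 ± 0.26) and wu:fc34e06 (1.22 ± 0.41), the last chosen after its values were seen. Lower in E beside those named were stil_1 (-1.08 ± 0.20) and the row without a descriptive symbol that passed at 2 hpf (-0.76 ± 0.14). For tmem79a, eml3 and stil_1 every alternative tried kept the call at 3 hpf. At equal section weights, however, tmem79a, tapt1a and bnip3la did not meet the ratio of the rule. The call for lyrm9 was lost without replicate 2 (edgeR adjusted p = 0.0714), that for tapt1a without replicate 2 or 3 (0.137 and 0.156), and that for gid8a without replicate 1 (0.0682). Those for atg3 without replicate 1 or 3 (edgeR adjusted p = 0.248 and 0.412), for ifi27.4 without replicate 2 or 3 (0.246 and 0.193) and for wu:fc34e06 without replicate 1, 2 or 3 (0.0798, 0.107 and 0.489) were lost as well. With library totals in place of TMM factors none of these last 3 passed (0.19, 0.0548 and 0.0754).

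**Figure D5:**
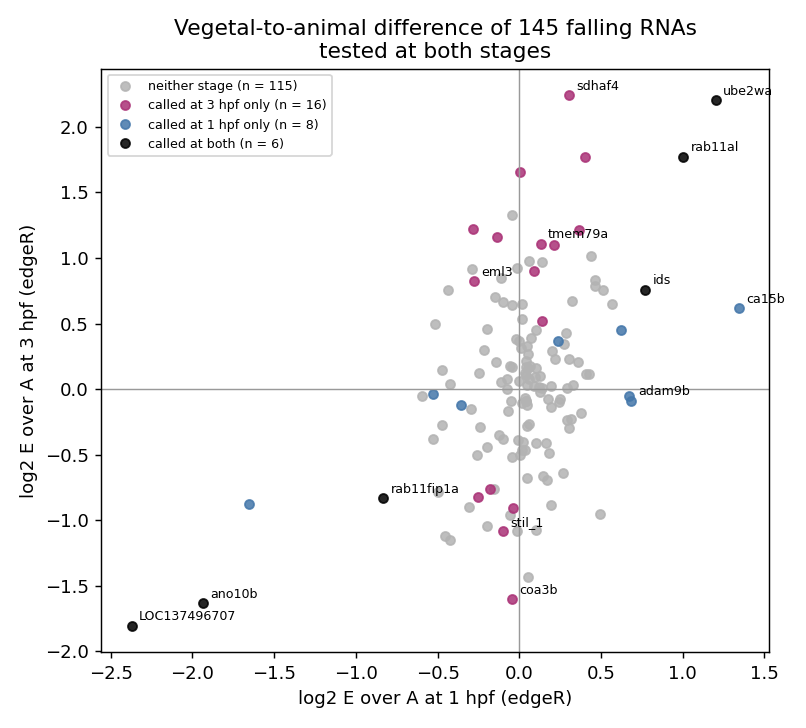
Log2 difference of E over A at 3 hpf (vertical) against 1 hpf (horizontal), from edgeR, for the 145 falling RNAs tested at both stages; black points passed at both stages, coloured points at 1 of them. Of these, 6 passed at both stages, 16 at 3 hpf only and 8 at 1 hpf only, and being called at 1 stage only does not show a change between stages.

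Whether the fall was unequal at the ends was tested as the shift of the E over A ratio at 3 hpf relative to 1 hpf. Of the 153 RNAs, 2 shifted toward E (0.324% of all genes did) and 2 toward A (0.371%), and an unadjusted p under 0.05 was found for 20.9% of the set and 10.9% of all genes. Section E had less weight at 3 hpf than at 1 hpf in the sums that chose the set, so RNAs kept in E could enter it more readily. These shares are therefore not independent of the choice. Whether the shifted RNAs meet the rule at equal section weights is not given here. The shift toward E was that of eml3 (1.11 ± 0.21; edgeR adjusted p = 0.00779) and tmem79a (0.97 ± 0.24; 0.0431). In section E eml3 had 76.0, 66.5 and 61.4 CPM at 3 hpf, against 64.5, 63.7 and 80.6 CPM at 1 hpf, and in section A it had 41.3, 43.3 and 47.7 CPM at 3 hpf, against 91.4, 95.3 and 92.7 CPM at 1 hpf. The stages thus overlapped at the vegetal end and stood well apart at the animal end. The membrane protein gene tmem79a had the same arrangement, with 66.4, 52.5 and 37.4 CPM in E at 3 hpf, against 55.9, 52.5 and 44.6 CPM at 1 hpf, and 25.6, 27.1 and 28.9 CPM in A at 3 hpf, against 42.3, 57.1 and 50.6 CPM at 1 hpf.

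The shift toward A was that of stil_1 (-0.98 ± 0.22; edgeR adjusted p = 0.03) and adam9b (-0.76 ± 0.18; 0.0414). In section E stil_1 had 15.5, 33.5 and 20.2 CPM at 3 hpf, against 108, 76.3 and 79.1 CPM at 1 hpf, and in section A it had 51.7, 73.2 and 43.9 CPM at 3 hpf, against 97.5, 110 and 95.5 CPM at 1 hpf. Both ends were lower at 3 hpf, and the vegetal end more so. For adam9b, section E had 29.5, 62.5 and 64.4 CPM at 3 hpf, against 121, 122 and 138 CPM at 1 hpf, and section A had 48.0, 73.2 and 73.2 CPM at 3 hpf, against 85.9, 80.3 and 94.4 CPM at 1 hpf. A changed profile over the 5 sections was called for 3 RNAs (0.995% of all genes), eml3, tmem79a and tapt1a. These calls need all replicates. Without replicate 1 or 2 none of the 4 shifts was called, and without replicate 3 eml3 was the only one. Without section A of 1 hpf replicate 1, a shallow library, 1 was called toward E (eml3) and 0 toward A. Of the 3 RNAs with a changed profile, tmem79a and tapt1a did not meet the ratio of the rule at equal section weights. The share with a changed profile is therefore not independent of the choice of the set either.

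Some values carry a limit of annotation. The symbols of 11 members have more than 1 row, so reads of near-identical copies may be divided among them. For zar1l_1 and pogzb the rows of the symbol together gave a ratio of 1.698, and for josd2 one of 1.65, all under the threshold, although every 3 hpf sample stayed below every 1 hpf sample. Of the 153 names, 151 were found in RefSeq's zebrafish gene table, 149 as protein coding and 2 (osm and nupr1a) as long non-coding RNA. One pair of members, si:dkeyp-46h3.3 and si:dkeyp-46h3.2, are neighbouring genes there.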

How the data were processed

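RNA was measured in 45 listed section samples, of which the deposited table holds 40 columns; the sections of 2 hpf replicate 3 are not analysed here. The authors deposited whole-number read counts per gene, per the file headers and the values, and each listed row has at least 60 counts over the libraries. The submitters' processing notes name GRCz11 as the build and list HTSeq 2.0.4, STAR 2.7.11, fastp 0.23.4 and DESeq2; their roles and the annotation are not given in the sources used here. RefSeq names came from another assembly, so no coordinates are given. Depth was 1355607 to 6566549 counts per library.

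The set, its rule and the gene lists were chosen with earlier results of these data known. CPM of sums use the summed total and CPM of sections the library total. Sections were tested with edgeR 4.0.16 (R 4.3.3; quasi-likelihood, TMM, standard low-count filter, Benjamini-Hochberg adjustment over all genes, threshold 0.05), with the embryo sample as a block, because the labels make sections of 1 stage and number 1 biological replicate. Their deviations correlated with medians of 0.645, 0.101 and 0.486 at 1, 2 and 3 hpf. The change of E over A was an interaction in 1 model of all 40 libraries. The p-values cover only the spread among the samples at hand. Log2 changes of 1 and 2 were put into some genes of simulated counts, all of them above a floor on mean counts. They were recovered for 81% and 100% of those genes (E against A, 1 hpf; 12597 genes run, 190 called). The shares were 68% and 96% at 3 hpf (12625 run, 173 called) and 60% and 89% for the interaction (12668 run, 158 called). In each comparison 9 calls were false. These are shares of the genes given a change, not of all genes run, and none is given for scarce RNAs alone.

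Named were descriptive members only: the 12 largest ratios, the 6 most abundant, up to 5 localised each way per stage with all replicates alike, those with a changed E-to-A difference, up to 3 per list and the 3 on each side of the threshold; others were chosen after their values were seen. Alternatives were library totals, DESeq2 size factors, no filter, no block, DESeq2 1.42.0, single libraries or replicates left out, and other settings of the rule.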

Additional observations from a re-analysis of the deposited data

Results flagged for a closer look

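Each RNA here was picked out because its vegetal-to-animal difference, or its profile over the sections, differed between 3 and 1 hpf by edgeR's interaction test. For the first 4, the log2 change of E over A, 3 minus 1 hpf, was 1.11 for eml3 and 0.975 for tmem79a, higher in E in 3 of 3 replicates at 3 hpf for both and in 0 of 3 and 1 of 3 at 1 hpf. It was -0.978 for stil_1, which was higher in E in 0 of 3 replicates at 3 hpf and 1 of 3 at 1 hpf, and -0.76 for adam9b, with 0 of 3 and 3 of 3. For tapt1a the change of the whole section profile had an edgeR adjusted p of 0.0257, with 16.9 ± 4.45 CPM in E and 8.98 ± 0.590 CPM in A at 3 hpf, against 18.6 ± 5.80 and 22.1 ± 5.22 CPM at 1 hpf (SD, n = 3). With 1 replicate left out, the change of E over A kept its sign for these 4 RNAs, but it passed the threshold for eml3 alone, and only without replicate 3.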

How the results depend on the processing

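Of 50 single values past a threshold, recomputed under 458 alternatives in all, 372 stayed past it, 86 did not and 0 changed direction. Depth limits the scarce RNAs most: 8 of the 153 could not be tested at 3 hpf. The self-test recovered 60% of interactions of 1 log2 unit, but it changed only genes above a floor on mean counts. It therefore says nothing of scarce RNAs, and its simulated counts held no differences between embryo samples. The causes of the differences below were not tested.

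Without the replicate block, 2 RNAs were higher in E at 1 hpf (8 with it), 7 higher and 5 lower at 3 hpf (14 and 8), and 8, 3 and 7 differed among sections at 1, 2 and 3 hpf (13, 7 and 18); 1 shifted toward E and 0 toward A (2 and 2), and 1 profile changed (3). With library totals 12 were lower in E at 1 hpf and 19 at 3 hpf, 1 shifted toward E and 4 toward A. With DESeq2 4 shifted toward E, 4 toward A and 7 profiles changed. With all 40 libraries in 1 model 5 were higher in E at 1 hpf and 9 at 2 hpf, and 13 differed among sections at 2 hpf. With 2 hpf replicate 2 stripped of its sections C and D, 8 were higher in E, and without its section E 2 were higher and 3 differed among sections. Without section A of 1 hpf replicate 1, 1 shifted toward E and 0 toward A.

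With 1 replicate left out, 5 to 6 were higher in E at 1 hpf, 6 to 10 higher and 5 to 12 lower at 3 hpf, and 8 to 9 differed among sections at 3 hpf. Likewise 0 to 1 shifted toward E, 0 to 0 toward A and 0 to 5 profiles changed, and the median change in section D was -1.25 to -1.03. The rule took 147 to 269 RNAs with 1 replicate left out, 321 at a ratio of 1.5, 61 at a ratio of 2 and 67 with 5 CPM added in place of 1. With the mean of the 5 section CPM at equal weights it took 163, of which 138 are in the set. Leaving out a replicate was not run at 2 hpf, where 1 would remain.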
